A study of Mus musculus with 24 samples.

Results

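The phagocyte NADPH oxidase is the enzyme complex with which macrophages and neutrophils turn oxygen into superoxide, and 6 genes of it are described here: Cybb, Cyba, Ncf1, Ncf4, Rac1 and Rac2. They were listed by name as subunits of this complex and are 6 of the 35519 genes summed from the deposited transcripts. All 6 passed the filter on low counts that left 9803 genes to test. The measurements are RNA sequencing libraries of microglia, the macrophages that live in the brain, sorted from whole brain of C57BL/6 mice as Ly6C-CD11b+Fcrls+ cells, with 1000 cells lysed for each of the 24 libraries. The mice were female or male and either wild type (WT) or knockout for neuroligin-4, an adhesion protein of synapses (NL4-/-), and each of these 4 kinds of mouse gave 2 control and 4 phagocytosis libraries. The labels do not say what the phagocytosis cells took up, where, the age of the mice, or whether animals were pooled, and the design text counts more replicates per phagocytosis group than the 4 analysed here.

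The oxidase is a membrane enzyme that is assembled on demand. Cybb encodes the catalytic subunit, which carries electrons from NADPH across the membrane to oxygen, and Cyba its membrane partner, without which the catalytic chain is unstable; the pair is called cytochrome b558. Ncf1 encodes the organiser p47phox, which is phosphorylated on activation and docks the cytosolic complex on Cyba, and Ncf4 encodes p40phox, which binds a phosphoinositide of the phagosome membrane. Rac1 and Rac2 are small GTPases that join the complex when loaded with GTP; Rac2 is made mainly in blood cells and Rac1 in nearly all cells. In brain the complex is known as a source of superoxide in microglia, and in phagocytes its product is released into the phagosome.

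The gene that moved most was Cybb, so the 250 bases before its start site are shown beside those of Ncf1 and Cyba; the RefSeq promoter table (GRCm38.p6) held these 3 of the 6 genes. All 3 lie on the minus strand, at chrX:9469325-9469574 for Cybb, chr5:134229626-134229875 for Ncf1 and chr8:122432941-122433190 for Cyba, and are written 5′ to 3′ toward the gene. Capitals mark matches on either strand to GAAANNGAAA, the core of the element bound by interferon regulatory factors.
Cybb: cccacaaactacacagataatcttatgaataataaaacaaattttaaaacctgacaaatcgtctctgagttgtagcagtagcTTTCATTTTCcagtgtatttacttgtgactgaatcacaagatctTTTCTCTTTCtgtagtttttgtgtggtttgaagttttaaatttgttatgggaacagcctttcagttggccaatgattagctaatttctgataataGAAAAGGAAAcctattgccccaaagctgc
Ncf1: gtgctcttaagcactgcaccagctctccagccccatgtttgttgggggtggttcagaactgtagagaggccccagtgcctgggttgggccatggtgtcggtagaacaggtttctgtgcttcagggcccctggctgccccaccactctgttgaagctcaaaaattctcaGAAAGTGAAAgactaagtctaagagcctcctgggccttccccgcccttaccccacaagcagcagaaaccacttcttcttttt
Cyba: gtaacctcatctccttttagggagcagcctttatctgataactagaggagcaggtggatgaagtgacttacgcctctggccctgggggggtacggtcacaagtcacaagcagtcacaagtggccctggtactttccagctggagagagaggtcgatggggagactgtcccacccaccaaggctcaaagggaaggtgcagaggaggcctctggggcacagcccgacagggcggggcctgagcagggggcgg
The Cybb run held 3 matches, at -168 to -159, -124 to -115 and -29 to -20 counted from the start site, Ncf1 held 1 at -82 to -73 and Cyba 0. Among 27025 RefSeq promoter windows of the same length, 3.04% held at least 1 match. The letters GAGGAA, 1 form of the site bound by the myeloid factor PU.1, were in 0 of the 3 runs on either strand and in 23.1% of all windows. These matches describe the letters only, and binding was not measured. Other or shorter forms of these sites, such as GGAA, and bases after the start site, were not searched.

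The 6 genes were measured at different precision. Cybb (ENSMUSG00000015340, GRCm38 chrX:9435252-9487771) had 2 to 17 reads in a control library and 28 to 75 in a phagocytosis library, so its control level rests on 47 reads in all. Cyba (ENSMUSG00000006519, chr8:122424776-122432930) had 204 to 594 reads in a library and Ncf1 (ENSMUSG00000015950, chr5:134220053-134229625) 157 to 564. Ncf4 (ENSMUSG00000071715, chr15:78244801-78262580) had 38 to 119 and Rac1 (ENSMUSG00000001847, chr5:143503634-143528036) 36 to 249. Rac2 (ENSMUSG00000033220, chr15:78559167-78572783) had 125 to 343. Library totals ran from 421107 to 1013797 expected reads. Across all 24 libraries the coefficient of variation of CPM (reads scaled to a library total of 1e+06, with TMM factors) was 72.2% for Cybb and 48.1% for Rac1, and between 17.8% (Rac2) and 24.7% (Ncf1) for the other 4 genes.

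Comparing phagocytosis with control microglia, Cybb rose by 3.01 on the log2 scale (8.05-fold), Cyba rose by 0.37 (1.29-fold), and Ncf1 fell by 0.37. Ncf4, Rac1 and Rac2 did not pass the test. The state comparison is the mean of the 4 differences within sex and genotype, tested with edgeR's quasi-likelihood test at a Benjamini-Hochberg adjusted p of 0.05 over all genes. It called 13.6% of the genes tested, 8.41% as higher and 5.18% as lower, against 3 of these 6 genes, 2 higher and 1 lower. In libraries of pooled cells, a change in the number of cells that make an RNA and a change in RNA per cell cannot be told apart.

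**Figure D1:**
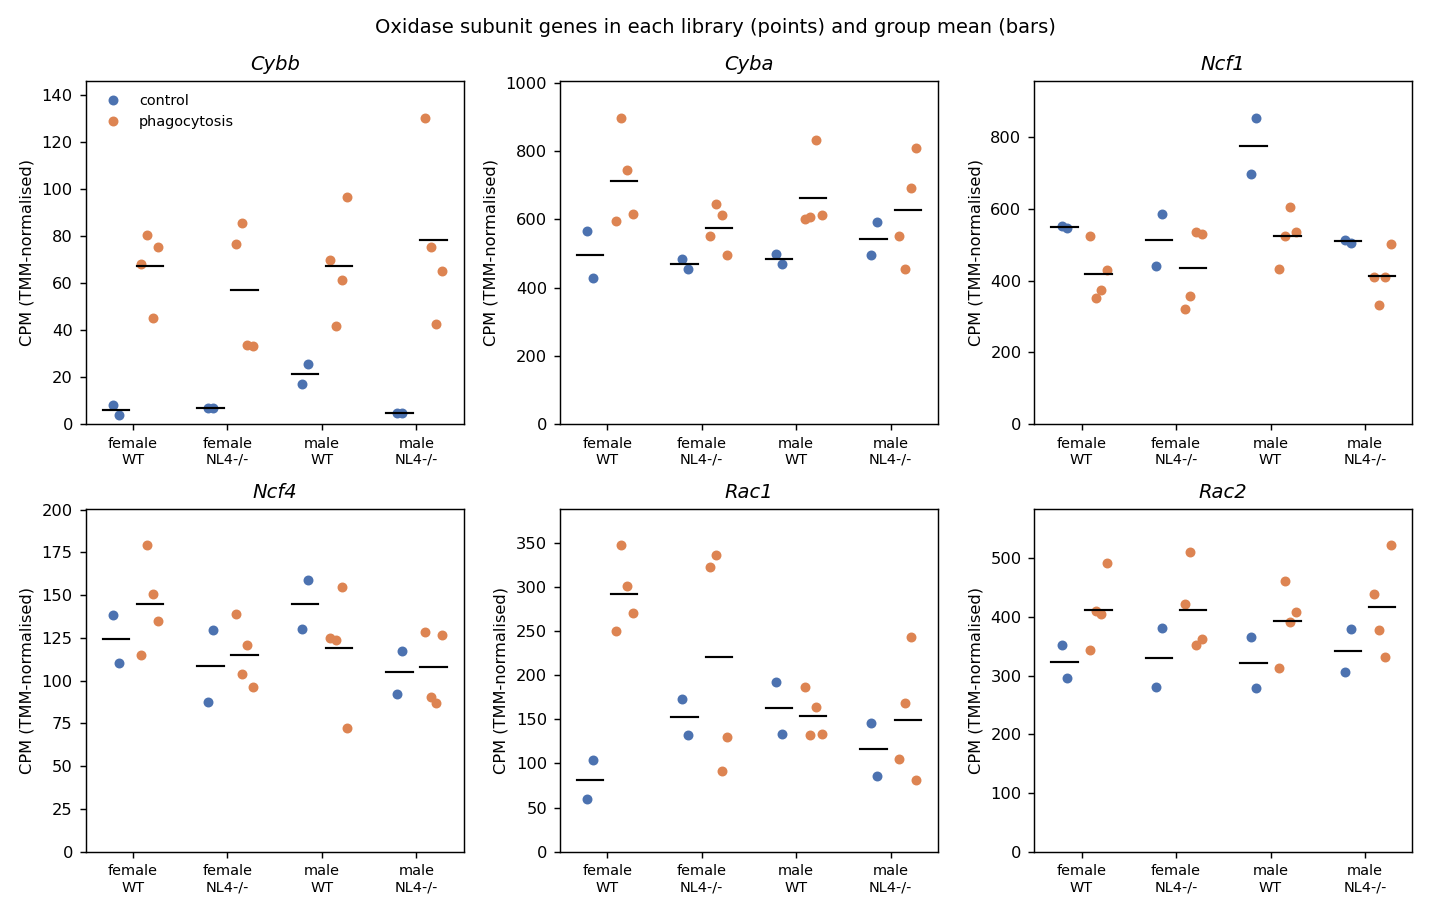
CPM (vertical axis, from 0, TMM-normalised) of each of the 6 genes in every library; points are libraries, blue control and orange phagocytosis, black bars are group means, and the horizontal axis gives sex and genotype. The 16 phagocytosis libraries lie above all 8 controls for Cybb, and the states overlap for the other 5 genes.

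Cybb was low in control microglia and higher in every phagocytosis library. In controls it stood at 8.13 and 3.68 CPM in female WT, 6.74 and 6.82 in female NL4-/-, 17.1 and 25.7 in male WT and 4.85 and 4.79 in male NL4-/-. The 2 male WT controls were thus above the other 6, which lay between 3.68 and 8.13 CPM. In phagocytosis libraries it was 68.2, 80.6, 45.0 and 75.4 CPM in female WT and 76.7, 85.4, 33.6 and 33.2 in female NL4-/-. The male phagocytosis values were 69.8, 41.6, 61.1 and 96.8 CPM in WT and 130.4, 75.4, 42.7 and 65.2 in NL4-/-. The lowest phagocytosis library was above the highest control; 0.796% of all genes tested had every phagocytosis library above every control. Mean levels were 9.73 ± 7.70 CPM (SD, n = 8) and 67.6 ± 25.4 CPM (SD, n = 16), and the log2 fold change was 3.01 ± 0.293 (SE, edgeR adjusted p = 4.26e-08). Leaving out each library in turn gave log2 fold changes of 2.91 to 3.19 for Cybb, with edgeR adjusted p of at most 1.30e-06.

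Within the single sex and genotype groups, 1 of the 6 genes passed in each of 3 groups, and it was Cybb each time. The log2 fold change of Cybb was 3.45 ± 0.565 in female WT (SE, edgeR adjusted p = 0.00139), where 0.581% of all genes passed. In female NL4-/- Cybb was 8.01-fold higher (log2 SE 0.600, edgeR adjusted p = 0.0117), where 0.459% passed. In male NL4-/- the log2 fold change was 3.96 ± 0.679 (edgeR adjusted p = 0.00322), where 0.602% passed. In male WT, where the controls were higher, it was 1.62 ± 0.480 and missed the threshold (edgeR adjusted p = 0.239). Of the 6 genes 0 passed edgeR in male WT, with 0.326% of all genes called, and 2 (Cybb and Ncf1) had an unadjusted p under 0.05; DESeq2 called 0. These single-group tests rest on 2 controls each: the Cybb call ended without female WT control 2 and without either NL4-/- control of its sex (adjusted p up to 0.3).

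Cyba, the partner chain of Cybb, was abundant in both states. Control libraries held 565 and 428 CPM in female WT, 483 and 453 in female NL4-/-, 499.5 and 469 in male WT, and 495 and 592 in male NL4-/-. Phagocytosis libraries held 595, 897, 745 and 614 CPM in female WT and 550, 645, 611 and 496 in female NL4-/-, then 601, 607, 832 and 613 in male WT and 552, 454, 691 and 810.3 in male NL4-/-. In female WT, female NL4-/- and male WT, all 4 phagocytosis libraries were above both controls of their group, and in male NL4-/- 2 were above and 1 below. Over all groups 12 of 16 phagocytosis libraries exceeded the highest control. The means were 498 ± 55.1 CPM (SD, n = 8) and 645 ± 122 CPM (SD, n = 16), a log2 fold change of 0.37 ± 0.115 (SE, edgeR adjusted p = 0.0303). The call did not survive length-scaled counts (0.25, edgeR adjusted p = 0.127), phagocytosis libraries 1 and 2 alone (0.32, adjusted p = 0.0703) or the removal of 3 controls rich in satellite repeat reads (0.35, adjusted p = 0.209), and it ended in 4 of 24 fits that left out a library, each of them a control.

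Ncf1, the organiser, was the subunit that fell. Its control values were 553 and 546 CPM in female WT, 441 and 586 in female NL4-/-, 698 and 854 in male WT and 512 and 506 in male NL4-/-. Its phagocytosis values were 525, 351, 373 and 428 CPM in female WT, 319.8, 356, 535 and 531 in female NL4-/-, 431, 524, 605 and 534 in male WT, and 409, 332, 409 and 502 in male NL4-/-. In 3 groups all 4 phagocytosis libraries lay below both controls, and in female NL4-/- 2 did. As for Cybb, the male WT controls were the highest of the 8. The means were 587 ± 131 CPM (SD, n = 8) and 448 ± 88.9 CPM (SD, n = 16), with a log2 fold change of -0.37 ± 0.114 (SE, edgeR adjusted p = 0.0261). The call was lost with phagocytosis libraries 3 and 4 alone (-0.25, edgeR adjusted p = 0.156), without the 3 satellite-rich controls (-0.37, adjusted p = 0.155), and in 10 of 24 fits that left out a library. Ncf1 shares 408 of its 3663 exon bases with Gtf2ird2 on the opposite strand, and the library method keeps no strand; Gtf2ird2 itself was at 70.8 ± 18.7 CPM (SD, n = 8) and 50.9 ± 15.8 CPM (SD, n = 16).

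Ncf4, which encodes the phosphoinositide-binding subunit, had mean levels of 121 ± 23.8 CPM (SD, n = 8) in control and 122 ± 27.6 CPM (SD, n = 16) in phagocytosis libraries. It ranged from 87.7 CPM in a female NL4-/- control to 159 in a male WT control, with a control median of 124. In phagocytosis libraries it ranged from 72.3 in male WT to 179 in female WT, again with a median of 124. The states overlapped throughout, and the log2 fold change was 0.00 ± 0.136 (SE, edgeR adjusted p = 0.997).

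Rac1 varied more between libraries than any of the other genes but Cybb. Control libraries held 59.3 and 104 CPM in female WT, 173 and 132 in female NL4-/-, 192 and 133 in male WT, and 146 and 86.3 in male NL4-/-. Phagocytosis libraries of female WT held 249.6, 347, 301 and 271 CPM, all above both controls of that group. Those of female NL4-/- fell into a high pair, 323 and 336 CPM, and a low pair, 91.6 and 130.4 CPM, the second below both controls. The male values overlapped with control, at 187, 132, 164 and 133 CPM in WT and 105, 169, 243 and 81.0 in NL4-/-. The means were 128 ± 44.0 CPM (SD, n = 8) and 204 ± 91.6 CPM (SD, n = 16), and the log2 fold change of 0.67 ± 0.234 did not pass (SE, edgeR adjusted p = 0.0652). DESeq2 did call it (0.68, adjusted p = 0.0163). In female WT alone the log2 fold change was 1.83 ± 0.486 (SE, edgeR adjusted p = 0.104), and DESeq2 gave 1.86 (adjusted p = 0.00172).

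The Rac1 count carries a further uncertainty. Of its 4496 exon bases, 2309 are shared with Daglb, a lipase gene on the opposite strand that had 8245.9 reads in all against 584 and 2210 of Rac1 in control and phagocytosis. Of the 31-base words of Rac1's main transcript, 19.9% occur in other genes, against 8.51% for Ncf1, 4.45% for Rac2 and 0 for Cybb, Cyba and Ncf4. Daglb was at 566 ± 82.2 CPM (SD, n = 8) and 482 ± 115 CPM (SD, n = 16), and its log2 fold change did not pass (-0.23, edgeR adjusted p = 0.267). How the quantifier divided such reads was not tested.

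Rac2, the GTPase of blood cells, varied least of the 6 genes in CPM. In TPM, which corrects for transcript length, its coefficient of variation over all libraries was 46.0%, against 31.7% for Cyba. Rac2 lay between 279 and 381 CPM in the 8 controls (median 329) and between 313 and 522 in the 16 phagocytosis libraries (median 407). In each group at least 2 of the 4 phagocytosis libraries were above both controls and 0 were below both, and 10 of the 16 exceeded the highest control. The means were 329.7 ± 43.9 CPM (SD, n = 8) and 409 ± 63.3 CPM (SD, n = 16). Within groups the log2 fold change was lowest in male NL4-/- (0.28) and highest in female WT (0.35), and the mean difference of 0.31 ± 0.115 missed the threshold (SE, edgeR adjusted p = 0.074), while DESeq2 called it (0.32, adjusted p = 0.0434). With length-scaled counts the Rac2 difference was larger and passed (0.73, edgeR adjusted p = 0.00724).

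**Figure D2:**
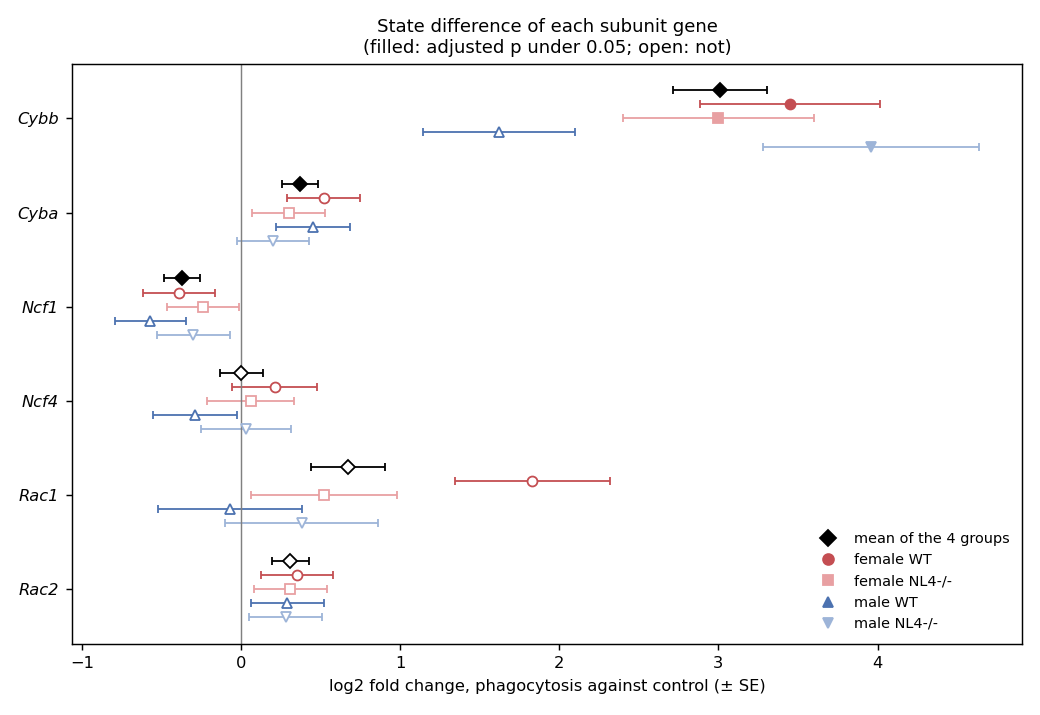
Log2 fold change of phagocytosis against control (horizontal axis, bars ± SE) for each of the 6 genes, for every kind of mouse separately and averaged over them; filled symbols passed the adjusted p of 0.05. Cybb lies between 1.62 and 3.96 in the 4 groups, while Cyba, Ncf1, Ncf4 and Rac2 stay within 0.6 of 0.

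In female NL4-/- the 4 phagocytosis libraries divided in the same way for several of these genes, a pattern picked out after the values were seen. Libraries 1 and 2 had 76.7 and 85.4 CPM of Cybb and libraries 3 and 4 had 33.6 and 33.2. Rac1 was 323 and 336 against 91.6 and 130.4 CPM, and Rac2 422 and 510.5 against 351 and 363. Ncf1 went the other way, with 319.8 and 356 against 535 and 531 CPM. Libraries 1 and 2 were also the shallower pair, with 622995 and 494566 gene reads against 872247 and 848714, and marker sums of other cells (CPM of the library total) divided with them. Border-associated macrophage markers summed to 2032 and 2068 in libraries 1 and 2 against 1428 and 1425 in 3 and 4, and monocyte markers to 152 and 101 against 52.7 and 46.0. Microglia markers summed to 30366 and 31575 against 51194 and 53384, and lymphocyte markers to 177 and 216 against 418 and 391. The microglia sums also divided by library number in male WT, at 25891 and 33016 against 37375 and 58037. In male NL4-/- they were 33561 and 31002 against 43948 and 49329, but in female WT 42065 and 32255 against 36061 and 44409. Border-associated macrophage sums overlapped between the pairs in both male groups, but in female WT were 1758 and 1735 against 1638 and 1616. Unlike in female NL4-/-, monocyte sums were lower in libraries 1 and 2 of female WT, at 68.3 and 58.1 against 121 and 129. The same held in male NL4-/-, at 115 and 95.4 against 133 and 136. In male WT monocyte sums were 191 and 316 against 117 and 31.3. Lymphocyte sums were 268 and 177 against 322 and 281 in female WT and 225 and 205 against 355 and 409.8 in male NL4-/-. In male WT they overlapped. The part of depth or of these cells in the values was not tested. With only libraries 3 and 4 of each phagocytosis group, Cybb in female NL4-/- was at 2.26 on the log2 scale (edgeR adjusted p = 0.0954).

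Genotype and sex were compared next, the questions posed by the neuroligin-4 design. Of 108 tests of the 6 genes in 18 comparisons of genotype, sex and their interactions with state, edgeR called 0, with a lowest adjusted p of 0.595. DESeq2 and the other alternatives also called 0. The share of all genes called was 0 in the 5 comparisons of NL4-/- with WT, 0 in every interaction, and for sex 0 in WT control, 0.0204% in WT phagocytosis, 0.0102% in NL4-/- control and in NL4-/- phagocytosis, and 0.0612% as the mean of these. Unadjusted p was under 0.05 in 10 of the 108. For Cybb, the male WT controls entered all 4 of its cases: the log2 difference of NL4-/- from WT in male control was -2.13 ± 0.839 (SE, edgeR adjusted p = 1), and of male from female in WT control 1.84 ± 0.687 (adjusted p = 1). The interaction of genotype and state in males for Cybb was 2.34 ± 0.904 (SE, edgeR adjusted p = 1), so the smaller state difference of Cybb in male WT was not shown to differ from that in male NL4-/-. For Rac1 the interaction of sex and state in WT was -1.90 ± 0.648 (SE, edgeR adjusted p = 1). The remaining cases were Rac1 in 2 further comparisons, Ncf1 in 2 and Ncf4 in 1. The knocked-out gene itself had 0 transcripts in the set used and could not be read.

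Levels were compared between genes in TPM, which corrects for transcript length. In control microglia Cyba had the highest mean level (585 ± 192 TPM, SD, n = 8), followed by Ncf1 (168 ± 68.9), Rac2 (122 ± 48.5), Ncf4 (90.0 ± 44.3), Rac1 (61.2 ± 34.3) and Cybb (4.16 ± 7.68). In phagocytosis microglia the order of mean levels was Cyba (900.4 ± 212 TPM, SD, n = 16), Rac2 (253 ± 83.7), Ncf1 (160.1 ± 52.0), Rac1 (141 ± 73.9), Ncf4 (96.9, range 54.0 to 148) and Cybb (20.4 ± 10.9). In both states only the step below Cyba and the step above Cybb exceeded the SDs of the neighbours, so the middle genes were not separated. The RNA of the catalytic chain was thus the lowest of the 6 in both states: Cyba exceeded Cybb by a median of 439 times in controls (range 36.9 to 713) and 46.6 times in phagocytosis libraries (range 18.5 to 99.9). Rac2 was above Rac1 in 7 of 8 control and 13 of 16 phagocytosis libraries, and Ncf1 was above Ncf4 in 8 and 14.

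**Figure D3:**
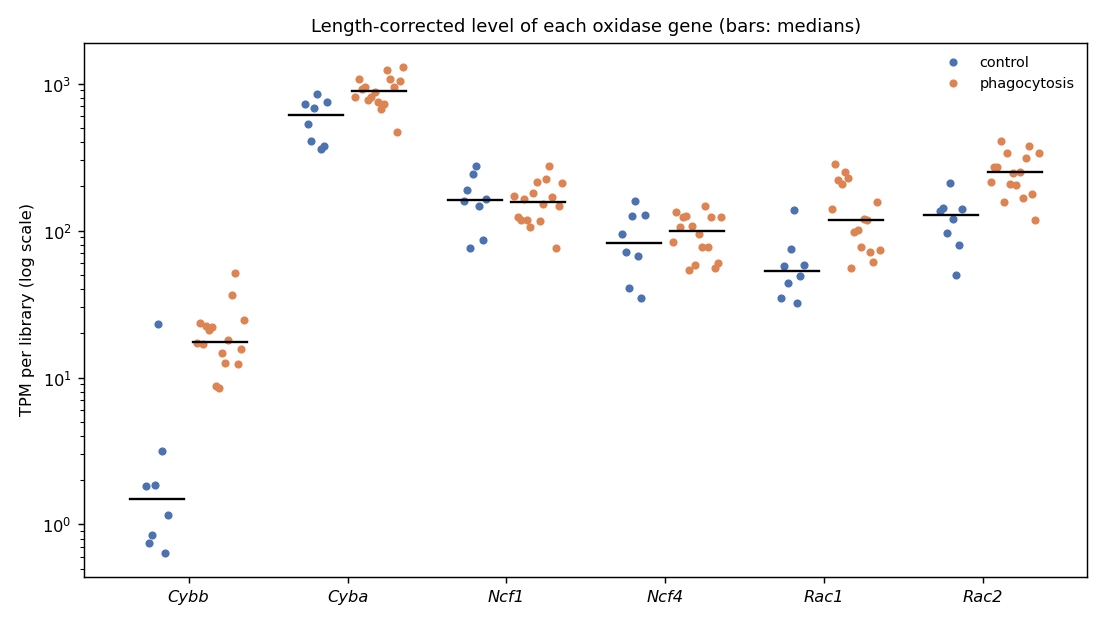
TPM per library (log axis) of the 6 genes; blue points are the 8 controls, orange points the 16 phagocytosis libraries and bars the medians. Cyba is highest and Cybb lowest in both states, and the single high Cybb control is male WT control 1.

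That library is the place where the TPM scale and the read count part. In male WT control 1, Cybb had 8 reads; 1 read on the short transcript Cybb-203 gave 10.2 TPM and 0.765 of a read on Cybb-205 gave 8.34 TPM, beside 4.53 TPM from 6.24 reads on the main transcript. On the main transcript alone, Cybb-201, controls ranged from 0.643 to 4.53 TPM and phagocytosis libraries from 8.46 to 51.7 TPM, with no overlap. Each gene was read mostly from a single transcript, which took 99.3% of reads for Cybb (Cybb-201), 96.1% for Cyba (Cyba-201), 93.8% for Rac2 (Rac2-201), 90.8% for Ncf1 (Ncf1-202), 83% for Ncf4 (Ncf4-201) and 82.8% for Rac1 (Rac1-202). For Rac1 the non-coding Rac1-204 took 5.68% of pooled control reads and 12.6% of pooled phagocytosis reads, which overlap library by library (0 to 12.5% and 0 to 18.5%).

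Genes whose 8 group means followed those of an oxidase gene most closely were found by the root mean square difference of centred log2 CPM over the 8 groups, among 9240 genes, as a description with no test. For Cybb, whose group means spanned 3.27 on that scale, they were Ehd1, an endosomal recycling ATPase (0.178), Igf2r, the receptor that carries mannose 6-phosphate enzymes to lysosomes (0.188), and the interferon-induced membrane protein gene Ifitm3 (0.290). For Cyba they were Cox4i1, a cytochrome oxidase subunit (0.0430), Edf1 (0.0453) and Mtx2 (0.0591). Cox4i1 passed the edgeR test of state (adjusted p = 0.0116), while Edf1 (adjusted p = 0.0682) and Mtx2 (adjusted p = 0.241) did not. For Ncf1 they were Spsb1 (0.0719), Cbll1 (0.0801) and Ppp1r3b (0.0847), and none of these 3 passed the edgeR test of state (adjusted p 0.0847, 0.483 and 0.164).

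The genes around the oxidase were read from lists of its regulators, fuel and products, each set beside the 13.6% of all genes called and a median log2 fold change of -0.01. Among upstream kinases, lipid kinases and exchange factors, 1 of 28 tested genes rose and 5 fell, with a median of -0.20. Mapk14, the p38 kinase that phosphorylates Ncf1's product, fell from 117 ± 15.9 CPM (SD, n = 8) to 66.2 ± 17.8 CPM (SD, n = 16), a log2 fold change of -0.81 (edgeR adjusted p = 0.000412). Pik3cd, a leukocyte phosphoinositide 3-kinase, fell by 0.55 (edgeR adjusted p = 0.0216) and Plcg2, a phospholipase downstream of immune receptors, by 0.45 (adjusted p = 0.0181). Arhgdia, whose product holds Rac in the cytosol, rose by 0.38 (adjusted p = 0.00775).

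Of 11 genes that supply NADPH, 1 rose and 0 fell, with a median of 0.20; it was Taldo1, of the pentose phosphate pathway (0.47, edgeR adjusted p = 0.00574).

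Of 18 tested genes that dispose of superoxide and peroxide, the oxidase's products, 7 rose and 0 fell, with a median of 0.41. Glrx, the gene of glutaredoxin, which reduces mixed disulphides, rose from 41.9 ± 13.3 CPM (SD, n = 8) to 374 ± 129 CPM (SD, n = 16), a log2 fold change of 3.14 ± 0.231 (SE, edgeR adjusted p = 4.30e-09), close in size to that of Cybb. Txn1, thioredoxin, rose by 1.19 (edgeR adjusted p = 7.99e-05), Prdx1, a peroxidase that thioredoxin recharges, by 0.99 (adjusted p = 8.09e-06), and Sod2, the mitochondrial superoxide dismutase, by 0.87 (adjusted p = 0.000735). Of 11 tested genes of the oxidant-responsive factor NRF2 and its targets, 5 rose and 0 fell, with a median of 1.02. Those that did not pass were Nfe2l2, which encodes NRF2 (-0.08), Gclc (-0.45), Gclm (0.39), Keap1 (0.38), Osgin1 (1.13) and Abcc1 (0.26). Their edgeR adjusted p ran from 0.0668 to 0.753, and the target Nqo1 was too low to test. Hmox1, haem oxygenase, rose from 92.0 ± 47.7 CPM (SD, n = 8) to 939.6 ± 430.4 CPM (SD, n = 16), a log2 fold change of 3.40 ± 0.271 (SE, edgeR adjusted p = 7.87e-08). Srxn1, which repairs overoxidised peroxiredoxin, rose by 2.84 (edgeR adjusted p = 0.000445), the glutathione transferase Gstm1 by 1.46 (adjusted p = 0.0102), and Txnrd1, which is in both lists, by 1.02 (adjusted p = 0.00269).

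Of 12 tested genes of factors known to act at the Cybb promoter, 3 rose and 1 fell, with a median of -0.10. The interferon regulatory factors Irf1 (-0.12, edgeR adjusted p = 0.715), Irf2 (-0.09, adjusted p = 0.779) and Irf8 (-0.05, adjusted p = 0.853), named for the motif shown above, did not pass. Spi1, which encodes PU.1, rose from 185 ± 23.4 CPM (SD, n = 8) to 318 ± 118 CPM (SD, n = 16), a log2 fold change of 0.74 (edgeR adjusted p = 0.00117) that was 0.26 with length-scaled counts (adjusted p = 0.291). Cebpb, which encodes an inflammatory factor of myeloid cells, rose by 2.66 from 3.05 ± 2.35 CPM (SD, n = 8), with an edgeR adjusted p of 0.0033. Nfkb1, which encodes an NF-kB subunit, fell by 0.40 (edgeR adjusted p = 0.0235), a call lost in 5 of 9 alternatives and in 5 of 24 fits that left out a library (down to -0.29, adjusted p up to 0.179). With phagocytosis libraries 3 and 4 alone Cebpb was at 1.47 (edgeR adjusted p = 0.174). Without the 3 satellite-rich controls the calls of Arhgdia, Plcg2, Pik3cd, Taldo1 and Nfkb1 were lost, with unchanged direction. In the 18 genotype, sex and interaction comparisons, 0 genes of these lists passed edgeR.

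**Figure D4:**
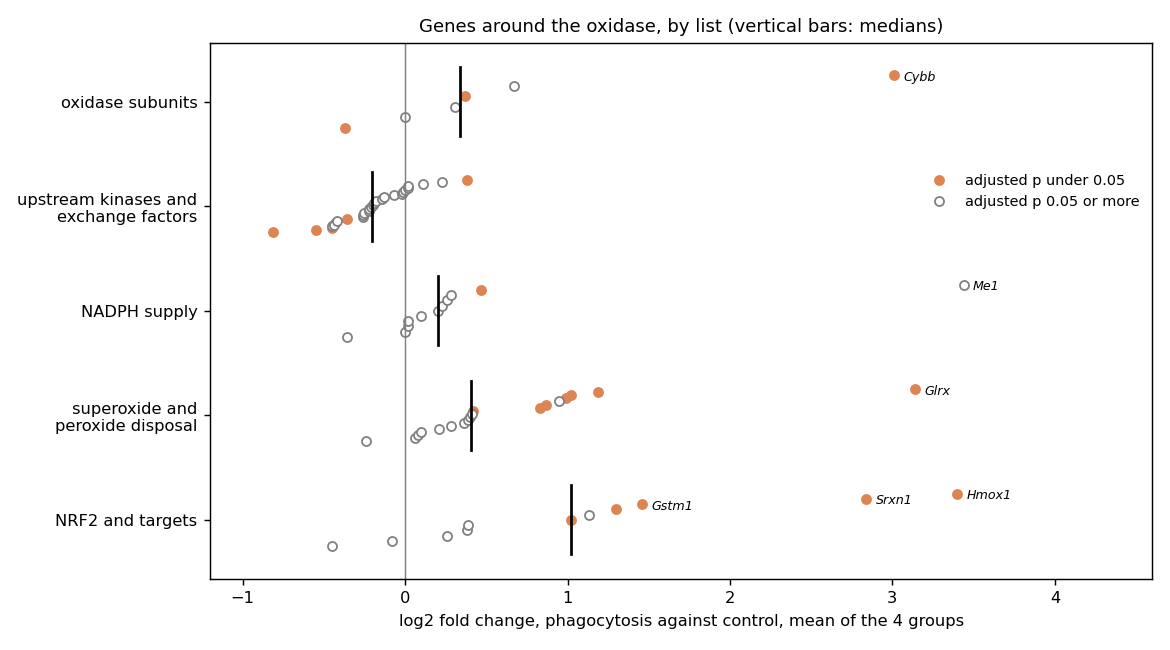
Log2 fold change of phagocytosis against control as the mean of the 4 groups (horizontal axis) for every tested gene of the oxidase and of 4 surrounding lists (rows); orange points passed the adjusted p of 0.05, open points did not, and vertical bars are list medians. Cybb, Glrx, Hmox1 and Srxn1 lie beyond 2.5; Me1 rests on 2 control reads and has no reliable size.

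Markers of other cells that could enter such a sort were summed in each library, as CPM of the library total. All 15 microglia markers were detected in both states, and 0 of 15 had a higher mean in phagocytosis; their sum was 42037 to 59334 in control (median 54816) and 25891 to 58037 in phagocytosis libraries (median 36718). Cybb is also made by monocytes, neutrophils and other macrophages. The sum of 14 monocyte markers was 21.3 to 111 in control and 31.3 to 316 in phagocytosis libraries, and 14 of 14 had a higher mean in phagocytosis; Ly6c2, whose product the sort selected against, had 6 reads over the controls and 37 over the phagocytosis libraries. The sum of 14 markers of border-associated macrophages was 866 to 1730.2 and 1425 to 2458, again with 14 of 14 higher, most of it Stab1. The sum of 14 neutrophil markers was 427 to 705 and 321 to 701, most of it Csf3r, with 8 of 14 higher; Ly6g, Mpo and Mmp8 were at 0 in control and Ngp in phagocytosis. The sum of 13 neuron markers was 6.54 to 15.6 and 21.8 to 118, with 12 of 13 higher. The share of all genes with a higher mean on this scale was not computed, so the counts of higher markers have no background. Many of these markers, Ly6c2 among them, did not pass the filter on low counts. Without that filter the median log2 fold change of all genes was 0.18. The part of these cells in the Cybb level was not tested.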

How the data were processed

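The authors deposited, for each of 24 libraries, expected counts of reads per transcript and TPM; per the file headers these are columns of salmon or a similar quantifier, with version, index and filtering steps not given in the sources used here. Per the labels' protocols the libraries are Smart-Seq2, which carries neither strand nor molecular identifiers. Of 116945 transcripts, 116023 matched GENCODE vM21 (GRCm38); those without a match, 0.274 to 0.379% of reads, were dropped. Per gene, expected counts were added up and rounded, and the authors' TPM were summed for levels between genes.

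Genes were tested with edgeR 4.0.16 (R 4.3.3; robust quasi-likelihood F test, TMM, expression filter with a minimum count of 10), in a single fit of 8 group means and 23 comparisons, with Benjamini-Hochberg adjustment over 9803 genes. The biological coefficient of variation was 0.285. All p-values are two-sided. SE were worked back from the F statistic, and fold changes carry a prior count of 0.125. The procedure was tested on simulated data. Alternatives were DESeq2 1.42.0, other scalings, no filter, length-scaled counts, subsets of libraries and a replicate block.

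Satellite-rich controls are the 3 with over 20% of reads on transcripts of the major satellite repeat: female NL4-/- 1, male WT 2 and male NL4-/- 1. The 6 genes and all lists were chosen with earlier results of these data known. From each list the text names up to 4 genes with the smallest p among those that passed, or up to 2 where none did, and for each called subunit the 3 genes most like it. Some genes that did not pass are named beside them. Some genes and lists are not reported here.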

Additional observations from a re-analysis of the deposited data

Results flagged for a closer look

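Cyba in male WT phagocytosis library 3, at 832 CPM, stood apart from the other 3 libraries of its group, which lay between 601 and 613 CPM. The gap was 0.947 of the group's range, above Dixon's 95% critical value for 4 samples. Of 24 groups of 4 values examined (6 genes in 4 phagocytosis groups) this was the only flag, and chance alone flags about 1 in 20.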

How the results depend on the processing

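Cybb passed with all 9 alternatives (log2 2.71 to 3.25) and all 24 fits that left out a library. The single-group tests are limited by 2 controls per group and by 2 to 17 reads of Cybb in a control; where leaving out a library left 1 control, it was taken to vary like the other groups. Of the 6 genes 3 were called; leaving out a library gave 1 to 5, with 1 without female WT control 2, male WT control 2 or male NL4-/- control 1 and 5 without female NL4-/- phagocytosis 3 or 4. DESeq2 gave 5, and the fit without satellite-rich controls gave 1. In female WT, no filter, the replicate block, phagocytosis libraries 1 and 2 alone and DESeq2 each gave 2 calls (leave-one-out 0 to 2; 2 without female NL4-/- phagocytosis 3). In female NL4-/- libraries 1 and 2 gave 2, libraries 3 and 4 gave 0 and the fit without satellite-rich controls 0 (leave-one-out 0 to 1). In male WT, no filter, the replicate block and libraries 3 and 4 each gave 1. In male NL4-/- the fit without satellite-rich controls gave 0 (leave-one-out 0 to 1). All genes called numbered 1332, against 782 with phagocytosis libraries 3 and 4, 410 without satellite-rich controls, and 781 (without female WT control 2) to 1508 over single libraries left out. Without the filter the median log2 fold change of all genes was 0.18, against -0.01. The cause was not tested for any of these.

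Log2 fold changes over single libraries left out ran from 0.34 to 0.44 for Cyba, -0.40 to -0.30 for Ncf1, -0.04 to 0.10 for Ncf4, 0.59 to 0.79 for Rac1 and 0.28 to 0.39 for Rac2. Cyba lost its call with length-scaled counts (0.25), phagocytosis libraries 1 and 2 (0.32), the replicate block (0.29) and without satellite-rich controls (0.35). Ncf1 lost it with libraries 3 and 4 (-0.25) and without satellite-rich controls (-0.37). Rac1 passed with no filter (0.67), length-scaled counts (0.84), the replicate block (0.83), libraries 1 and 2 (0.84) and DESeq2 (0.68). Rac2 passed with length-scaled counts (0.73) and DESeq2 (0.32). Ncf4, at 0.00, turned to -0.19 with length-scaled counts, -0.04 with libraries 3 and 4 and -0.05 without satellite-rich controls. Cbll1 turned from -0.37 to 0.20 without satellite-rich controls.

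Replicate numbers did not clearly pair the libraries. Same-numbered libraries deviated together with a correlation over 0.1 in 3 of 24 pairs among phagocytosis groups, 0 of 12 among controls and 3 of 32 across states. Differently numbered libraries did so in 6 of 72, 2 of 12 and 6 of 96 pairs. The replicate block called 1646 genes, against 1332 in the main fit.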
